A study of Mus musculus with 13 samples.

Results

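T, Eomes, Mixl1, Gsc, Mesp1, Foxa2, Cer1 and Lhx1 are 8 regulators of gastrulation, the stage at which the embryo forms mesoderm and endoderm. They were chosen by symbol, and each matched 1 of the 24470 rows of the deposited count table. They were followed through 5 mRNA libraries and 8 ATAC libraries of E14 mouse embryonic stem cells, a pluripotent line of 129/Ola background kept in medium with serum and leukemia inhibitory factor (LIF). ATAC maps open chromatin by letting the transposase Tn5 cut accessible DNA. In the low-input protocol, mRNA was pulled with oligo-dT beads from the lysate of the same cells whose chromatin had been cut. Experiment 1 had libraries from 10000 and 20000 cells, and experiment 2, done on another day per the design text, had libraries from 5000, 10000 and 20000 cells. Omni-ATAC, the benchmark protocol, was run once each with 5000, 10000 and 50000 cells and gave no mRNA. All groups share the line and the medium, and the labels give no treatment or differentiation step; by the labels and the series' design text, the groups differ in experiment (done on different days), cell number and protocol.

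In the embryo, Nodal, Wnt and BMP signals from the epiblast and its neighbours switch on this set of genes at the primitive streak. T (Brachyury) and Eomes are T-box transcription factors of the streak, Mixl1, Gsc and Lhx1 are homeodomain factors, Mesp1 is a basic helix-loop-helix factor of early mesoderm, and Foxa2 is a forkhead factor of endoderm and node. Cer1 is a secreted antagonist of Nodal, BMP and Wnt. In embryonic stem cells such genes are known to be mostly silent while remaining poised for induction, and serum cultures are known to hold a few cells that express them.

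The mRNA libraries held 13727122 to 20426252 counts each. Levels are given as CPM, counts scaled to a common library total, and 3 counts, the limit set for a gene with 0 counts, corresponded to 0.147 to 0.219 CPM; the Wilson upper bound at 0 counts is higher, 0.188 to 0.280 CPM. Intervals below are 95% Wilson intervals, and intervals and this limit cover counting error only. All 8 pluripotency markers were above 3 counts in each library, with a summed level of 2980 to 3223 CPM. In the comparison of experiments described below, Zfp42 and Klf4 were called as higher in experiment 2. Their log2 fold changes were 0.38 and 0.42 (edgeR adjusted p = 0.0282 and 0.0381), and the other pluripotency markers were not called. Markers of other cell types were low, but several differed between the experiments. Early neural genes (5) summed to 3.50 and 2.34 CPM in experiment 1 and to 8.47, 10.9 and 7.74 CPM in experiment 2, where Pax6 had 93, 108 and 72 counts against 2 and 0. Without Pax6 the sums were 3.35 and 2.34 against 2.92, 3.93 and 4.21 CPM and overlapped between the experiments. Fibroblast genes (7) summed to 32.1 and 35.3 CPM in experiment 1 and to 10.5, 9.61 and 9.01 CPM in experiment 2. Most of it was Thy1, with 401 and 506 counts against 164, 105 and 144. The other markers did not separate the experiments in this way. Col1a1 had 26 and 13 against 2, 14 and 10 counts, and Pdgfrb 10 and 8 against 8, 25 and 30. Col1a2 and Dcn had at most 5 counts, and Col3a1 and Lum were at 0 in all 5 libraries. Trophoblast genes (7) came to 4.37 and 5.55 against 8.35, 8.83 and 9.79 CPM. Primitive endoderm genes (8, 40.4 to 55.7 CPM, mostly Lama1) and formative epiblast genes (5, 26.6 to 41.0 CPM) overlapped between the experiments in their sums.

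The experiments also differed by chromosome, although the labels give 1 line. The 5 tested Y-linked genes other than Erdr1 together had 0 counts in both libraries of experiment 1 and 308, 375 and 502 counts in those of experiment 2. In the comparison of experiment 2 with experiment 1 described below, the median log2 fold change was 0.46 on chromosome 8 (84.4% of tested genes higher) and -0.29 on chromosome 15 (23.9% higher), beside 0.0010 over all genes. None of the 8 genes lies on chromosomes 8, 15 or Y. The experiment and these differences cannot be told apart. Nothing in the labels names separate cultures for the libraries of 1 experiment, so the spread within an experiment may be technical.

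The 8 genes were close to silent. Their counts together came to 29 and 56 in experiment 1 (10000 and 20000 cells) and to 53, 69 and 96 in experiment 2 (5000, 10000 and 20000 cells). These sums correspond to 2.11, 3.75, 3.16, 4.45 and 4.70 CPM for all 8 genes. Between 3 and 5 of the 8 genes had more than 3 counts in a library, while 55.6% to 61.9% of all genes did. Averaged over the 5 libraries, 2 genes (Eomes and Mesp1) reached 1 CPM, a level that 47.0% of all genes reached, and 6 lay below 0.5 CPM. In these bulk libraries, expression in few cells and low expression in many cells cannot be told apart.

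Eomes (gene ID 13813, mm10 chr9:118478189-118486132, plus strand) had the most counts summed over the 5 libraries, 113 beside 102 for Mesp1. Mesp1 had more counts than Eomes in both libraries of experiment 1 and with 5000 cells of experiment 2. Of the 2 members tested below, Eomes differed more clearly between the experiments. It had 5 counts (0.364 CPM) and 13 counts (0.870 CPM) in experiment 1 with 10000 and 20000 cells. In experiment 2 it had 11 counts (0.656 CPM) with 5000 cells, 41 (2.64 CPM) with 10000 cells and 43 (2.11 CPM) with 20000 cells. The libraries from 10000 and 20000 cells of experiment 2 were thus both above those of experiment 1, at 2.37 ± 0.381 against 0.617 ± 0.358 CPM (SD, n = 2 each). The library from 5000 cells belonged to experiment 2 but lay at the level of experiment 1. Its interval, 0.366 to 1.18 CPM, lay below those of the other experiment 2 libraries, which were 1.95 to 3.59 and 1.56 to 2.84 CPM. Of the 12523 genes tested, 26.6% were likewise higher in both fitted libraries of experiment 2 than in both of experiment 1, and 17.7% with the library from 5000 cells included. Lower in both were 27.3%, and 0 of the 2 tested members were among these.

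The fit of experiment 2 against experiment 1 used the 4 libraries from 10000 and 20000 cells. For Eomes the log2 fold change was 1.92 ± 0.74 (SE), and edgeR's quasi-likelihood test gave an adjusted p of 0.0928 over all genes, above the threshold of 0.05. Of the 8 genes, 2 had enough counts for the test, and 0 of these were called by edgeR or by DESeq2, while 1 (Eomes) had an unadjusted p under 0.05. Over all genes tested, 12.5% were called, 5.75% as higher and 6.76% as lower in experiment 2. The result rests on single libraries: without the experiment 1 library from 20000 cells the Eomes change was 2.69 with an edgeR adjusted p of 0.0417, and with all 5 libraries it was 1.55 with an adjusted p of 0.275. Where 1 library is left out, 1 experiment has a single library, which the fit assumes to vary like those of the other experiment; this holds for each such p given here. Across its 10 alternatives the edgeR or DESeq2 adjusted p ran from 0.0417 to 0.429. Eomes is also a trophoblast marker. The summed trophoblast list, Eomes included, was 4.37 and 5.55 CPM in experiment 1 and 8.83 and 9.79 CPM in the fitted libraries of experiment 2. Of the other 6 markers in these 4 libraries, Tfap2c had 28 and 50 counts in experiment 1 and 64 and 129 in experiment 2 (edgeR adjusted p = 0.144). Gata3 had 0 and 7 against 16 and 4 counts, Krt7 22 and 9 against 15 and 8, Cdx2 0 and 4 against 0 and 10, Hand1 5 and 0 against 1 and 6, and Elf5 0 in all 4. In the library from 5000 cells, where Eomes had 11 counts, Tfap2c had 102, Elf5 10, Krt7 8, Cdx2 7, Gata3 2 and Hand1 0. The part of such cells in the Eomes values was not tested.

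T (gene ID 20997, mm10 chr17:8434423-8442496, plus strand), the gene that names the T-box family, had 0 and 1 counts in experiment 1. In experiment 2 it had 0 counts with 5000 cells, 11 with 10000 cells and 3 with 20000 cells. A single library was therefore above the limit of 3 counts, at 0.709 CPM (interval 0.396 to 1.27), and the other 4 libraries were at or below that limit. The experiment 2 library with these T counts was also the one with the highest Eomes level.

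**Figure D1:**
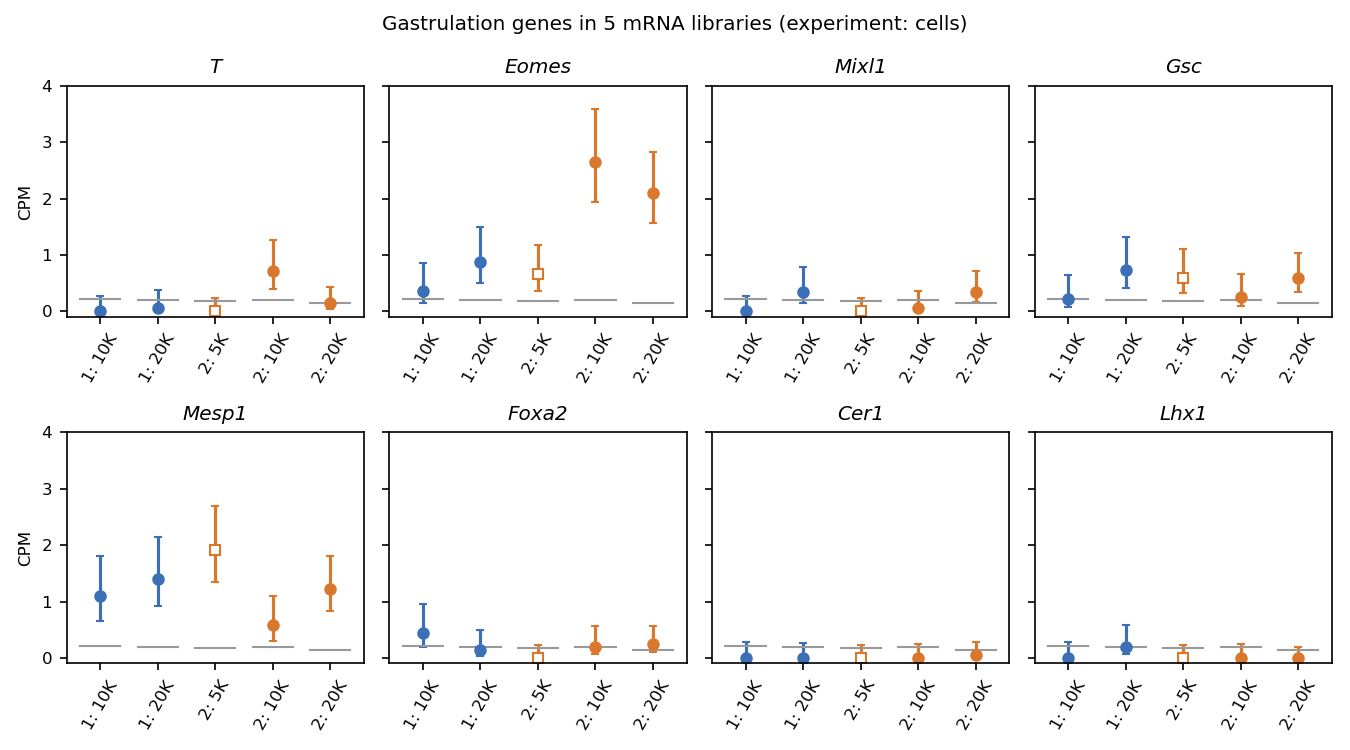
Level of each of the 8 genes (CPM, linear axis) in the mRNA libraries of experiment 1 (blue) and experiment 2 (orange), with 95% Wilson intervals and a grey bar at the level of 3 counts; the open square, 5000 cells of experiment 2, did not enter the fit. Eomes stands at 2.64 and 2.11 CPM in the experiment 2 libraries from 10000 and 20000 cells, and Cer1 and Lhx1 stay at or below the grey bar in all 5 libraries.

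Mesp1 (gene ID 17292, mm10 chr7:79792241-79793590, minus strand) was detected in each library and followed another order than Eomes. It had 15 counts (1.09 CPM) and 21 counts (1.41 CPM) in experiment 1, and 32 (1.91 CPM), 9 (0.580 CPM) and 25 (1.22 CPM) in experiment 2 with 5000, 10000 and 20000 cells. The library highest for Eomes was thus the lowest for Mesp1, and the library from 5000 cells was the highest for Mesp1. The experiments overlapped, with a log2 fold change of -0.45 ± 0.81 (SE, edgeR adjusted p = 0.786). With all 5 libraries the change turned to 0.043 (edgeR adjusted p = 0.982).

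Gsc (gene ID 14836, mm10 chr12:104471209-104473236, minus strand), a factor of the organizer region, had 3 and 11 counts in experiment 1 and 10, 4 and 12 counts in experiment 2. Both experiments had more counts with 20000 than with 10000 cells, at 0.736 against 0.219 CPM and 0.587 against 0.258 CPM, but the intervals overlapped within each experiment. Foxa2 (gene ID 15376, mm10 chr2:148042877-148046969, minus strand) had 6 and 2 counts in experiment 1 and 0, 3 and 5 in experiment 2. Mixl1 (gene ID 27217, mm10 chr1:180693043-180697034, minus strand) had 0 and 5 counts in experiment 1 and 0, 1 and 7 in experiment 2. For Mixl1 the libraries from 20000 cells were the ones above 3 counts in either experiment. None of these 3 genes passed the filter on low counts, and without that filter edgeR gave adjusted p of 0.976 for Gsc, 0.961 for Foxa2 and 0.969 for Mixl1.

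Cer1 (gene ID 12622, mm10 chr4:82881751-82885151, minus strand) had 1 count in the experiment 2 library from 20000 cells and 0 in the other 4. Lhx1 (gene ID 16869, mm10 chr11:84519379-84525534, minus strand) had 3 counts in the experiment 1 library from 20000 cells and 0 elsewhere. Neither exceeded 3 counts in any library. Without the filter on low counts, edgeR gave adjusted p of 0.635 for T, 0.818 for Cer1 and 0.735 for Lhx1. Over the 8 genes the 5000-cell library had 5 genes at 0, more than any other library, and its counts came from Mesp1, Eomes and Gsc.

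The genes whose levels followed those of Eomes most closely, by Pearson's r of log2(CPM + 1) over the 5 libraries among 11511 genes averaging 1 CPM or more, were Setdb1 (r = 0.998), Rps6ka3 (r = 0.998) and Nfib (r = 0.996). Nfib had 1.46 and 2.14 CPM in experiment 1 and 1.73, 4.39 and 4.01 CPM in experiment 2, so it too was low in the library from 5000 cells. For Mesp1 they were Crcp (r = 0.998), Eif2ak2 (r = 0.992) and Haus6 (r = 0.991). An r of 0.95 was exceeded by 156 genes with Eomes and by 31 with Mesp1. They describe likeness over these libraries, which come from 2 experiments.

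Other genes of gastrulation were read from 3 lists. Of 18 streak and nascent mesoderm genes, 6 were tested, 2 were higher in experiment 2, 2 were lower and 2 were not called, where 5.75% of all genes tested were called as higher and 6.76% as lower. The median log2 fold change of the tested genes was -0.89, beside 0.0010 over all genes tested. Apela, which encodes a secreted ligand of the apelin receptor, had the highest CPM of them and rose from 24.0 ± 0.602 to 67.0 ± 7.07 CPM (SD over 2 libraries). Its change was 1.48 ± 0.16 (log2, SE), with an edgeR adjusted p of 5.14e-07. Snai1, a repressor of epithelial genes, fell from 8.13 ± 0.242 to 1.99 ± 0.384 CPM (-2.04 ± 0.37 in log2, edgeR adjusted p = 0.000565). Mesp2, the neighbour and paralogue of Mesp1, fell from 8.65 ± 0.0725 to 3.34 ± 0.258 CPM (-1.37 ± 0.33 in log2, edgeR adjusted p = 0.00633). Cdx1, a caudal-type homeodomain factor, rose from 1.57 ± 1.19 to 5.00 ± 1.24 CPM (1.66 ± 0.50 in log2, edgeR adjusted p = 0.0306). With 5000 cells Apela had 78.7, Snai1 2.57, Mesp2 1.01 and Cdx1 1.91 CPM, so Cdx1 and Mesp2, like Eomes, were below both fitted libraries of their experiment, which had 4.13 and 5.87 CPM for Cdx1 and 3.16 and 3.52 CPM for Mesp2. The Cdx1 call was lost under DESeq2 (adjusted p = 0.0591), with all 5 libraries (adjusted p = 0.125), and without the experiment 1 library from 10000 cells (0.142) or the experiment 2 libraries from 10000 cells (0.0852) or 20000 cells (0.296). Without the experiment 1 library from 20000 cells its change was 2.79 (log2), and without that from 10000 cells 1.06. Mesp2 was not called without the experiment 2 library from 10000 cells (edgeR adjusted p = 0.0704), which left 2 of the 4 calls in the list.

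Of 14 endoderm, node and organizer genes, 6 were tested, with a median log2 fold change of -0.28, and 1 was called, beside 12.5% of all genes. Gata6, a factor of primitive and later endoderm, had 44 and 22 counts in experiment 1 and 0 and 6 in the fitted libraries of experiment 2 (-3.81 ± 1.01 in log2, edgeR adjusted p = 0.0131). Of the other primitive endoderm markers, Dab2 fell with it, from 113 and 65 counts to 16 and 10 (edgeR adjusted p = 0.000264). Pdgfra had 17 and 38 against 10 and 5 counts, Foxq1 28 and 12 against 8 and 6, and Sox7 17 and 18 against 5 and 16, with edgeR adjusted p of 0.118, 0.237 and 0.486. Lama1 had 430 and 649 against 685 and 983 counts (edgeR adjusted p = 0.261), and Sox17 and Gata4 overlapped between the experiments. The part of such cells in the Gata6 values was not tested. The Gata6 call was lost without the library from 10000 cells of experiment 1 (-3.19 in log2, edgeR adjusted p = 0.333) or of experiment 2 (-2.95, adjusted p = 0.143), which left 0 calls in the list. Without the experiment 2 library from 20000 cells the fitted libraries of experiment 2 had no Gata6 count, and with 0 counts there no fold is given. Lefty1, an inhibitor of Nodal signalling with the highest CPM of the list, had 45.5 and 42.3 CPM in experiment 1 and 45.7, 41.0 and 53.5 CPM in experiment 2, and it was not called (edgeR adjusted p = 0.728).

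Most genes of the inducing signals were detected. Of 25 genes of these pathways, 20 averaged 1 CPM or more, as did 47.0% of all genes, and 14 averaged 10 CPM or more. In the fit 21 were tested, with a median log2 fold change of 0.040. In the list 2 were higher in experiment 2, 1 was lower and 18 were not called, a share near the 12.5% called over all genes. Tdgf1, the Nodal co-receptor, had the highest CPM, 428 ± 4.25 and 409 ± 15.1 CPM (-0.063 ± 0.11 in log2, edgeR adjusted p = 0.788). Gdf3, a ligand related to Nodal, rose from 58.9 ± 1.51 to 121.6 ± 11.1 CPM (1.05 ± 0.13 in log2, edgeR adjusted p = 5.55e-06). Smad1, which carries BMP signals to the nucleus, rose from 2.16 ± 1.10 to 9.22 ± 1.09 CPM (2.08 ± 0.37 in log2, edgeR adjusted p = 0.000439), and its change was 2.75 without the experiment 1 library from 20000 cells. Nodal fell from 59.1 ± 2.07 to 37.1 ± 11.8 CPM (-0.67 ± 0.17 in log2, edgeR adjusted p = 0.0116). Within experiment 2 Nodal had 28.6, 28.8 and 45.5 CPM with 5000, 10000 and 20000 cells, and without the library from 10000 cells the change was -0.37 (edgeR adjusted p = 0.275), while without that from 20000 cells it was -1.03 (0.00159). Without the experiment 1 library from 20000 cells 5 genes of this list were called. Apela and Smad1 lie on chromosome 8, where the 692 tested genes had the shift given above; its part in their values was not tested.

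**Figure D2:**
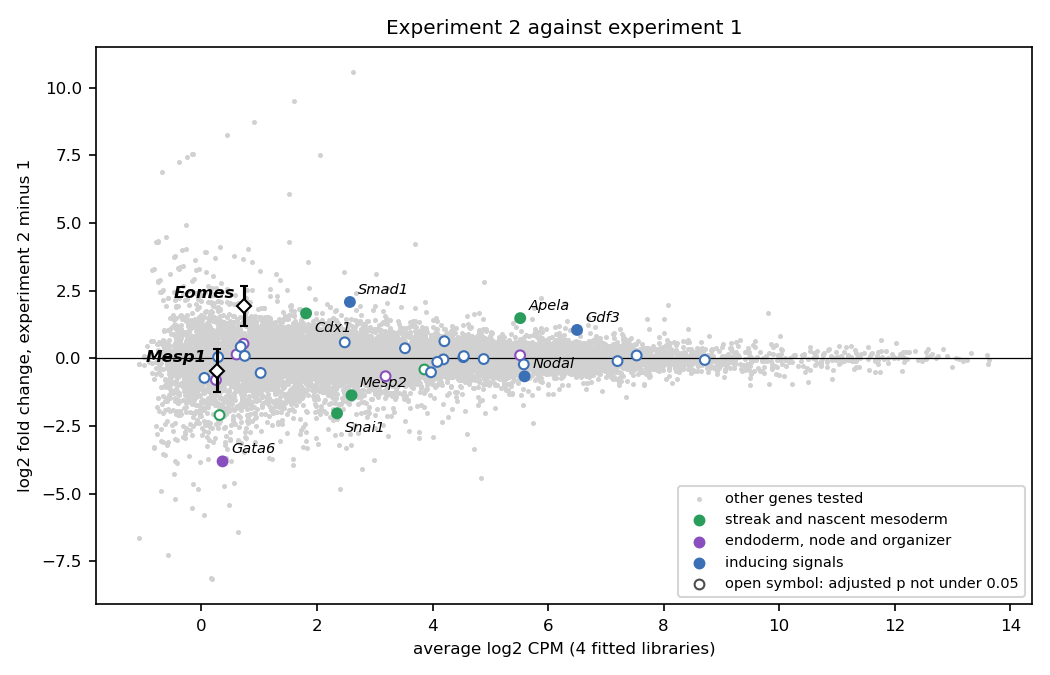
Log2 fold change of experiment 2 against experiment 1 by average log2 CPM for the genes tested (grey), with genes of the 3 lists in colour (filled where the edgeR adjusted p was under 0.05) and Eomes and Mesp1 as diamonds with their SE. Eomes lies at 1.92 and Mesp1 at -0.45, both uncalled, near the low end of expression, while Apela, Gdf3, Smad1 and Cdx1 are filled above 0 and Snai1, Mesp2, Nodal and Gata6 below.

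Open chromatin at the 8 genes was read from the deposited peak lists, which give positions without height. A promoter peak was one that overlapped the 1000 bp on either side of the gene's start by at least 1 bp. Such peaks were found at 1 of the 8 genes in the experiment 1 list from 10000 cells (31.1% of all genes had one) and at 2 in that from 20000 cells (37.4%). In experiment 2 they were found at 1 gene with 5000 cells (31.1% of all genes), 3 with 10000 cells (40.5%) and 3 with 20000 cells (50.3%). Omni-ATAC had 0 with 5000 cells (18.6% of all genes), 2 with 10000 cells (41.5%) and 7 with 50000 cells (61.1%). The 8 genes were below the share of all genes in 7 lists, but with 8 genes a single one is 12.5%, and 3 of 8 is near the background of 40.5%. The 6 members averaging under 1 CPM were set against the genes of that level. They had a promoter peak in 0 of 6 cases with 10000 cells of experiment 1 (10.4% of such genes), 1 with 20000 cells (13.9%), and 0, 1 and 1 with 5000, 10000 and 20000 cells of experiment 2 (9.97%, 15.1% and 22.2%). In Omni-ATAC they had 0, 0 and 5 with 5000, 10000 and 50000 cells (5.37%, 16.7% and 34.2%). They were thus above the share of such genes in 3 lists and below it in 5, with no test of these differences. Eomes and Mesp1, the members above 1 CPM, held 11 of the 19 combinations of gene and list with a promoter peak. Among genes averaging 10 CPM or more the share ran from 38.8% to 95.7%. The 7 genes in the Omni-ATAC list from 50000 cells were 87.5% of the set. That list is the longest, with 95457 peaks against 9097 to 49508 in the others, read depth is unknown, and cell number, depth and list length cannot be told apart.

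**Figure D3:**
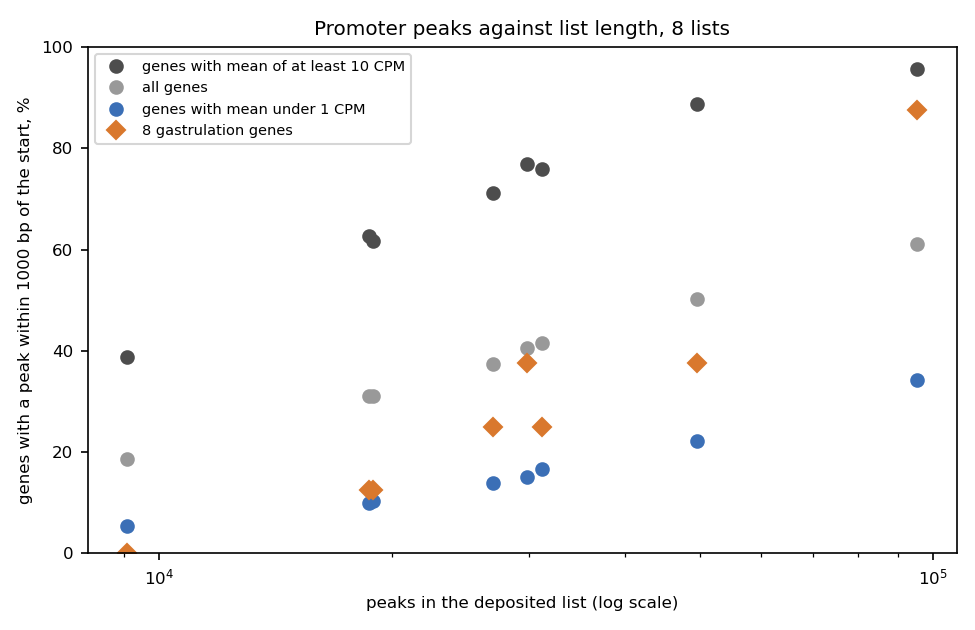
Share of genes (%) with a peak within 1000 bp of the start against the number of peaks in the list (log scale), 1 point per ATAC list, for the 8 gastrulation genes (diamonds), all genes, genes with a mean under 1 CPM and genes of at least 10 CPM. The 8 genes, of which Eomes and Mesp1 average over 1 CPM, lie below the share of all genes in 7 lists and at 87.5% in the Omni-ATAC list from 50000 cells.

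Over 8 genes and 8 lists, 19 of 64 combinations had a promoter peak, most of them at 3 genes. Eomes had one in 6 lists, Mesp1 in 5 and Mixl1 in 4. T, Gsc, Foxa2 and Lhx1 each had one in 1 list, the Omni-ATAC list from 50000 cells, and Cer1 in 0. In the 5 low-input lists the counts were 4 for Eomes, 3 for Mesp1, 3 for Mixl1 and 0 for the other 5 genes. Most of these peaks were narrow: with peaks of at least 50 bp, 8 of the 64 combinations remained with a peak.

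At Eomes the promoter peaks lay downstream of the start, inside the gene. The Omni-ATAC list from 50000 cells held a peak of 1042 bp from 334 to 1375 bp after the start. The experiment 2 lists from 10000 and 20000 cells held peaks of 82 and 116 bp within it, which begin 999 and 990 bp after the start, and the list from 5000 cells a peak of 9 bp at 999 bp. The 20000-cell list of experiment 1 had no peak within 1000 bp of the start, but 1 of 9 bp upstream, from -1685 to -1677 bp. The 10000-cell list of experiment 1 had 1 of 9 bp at 342 bp, which the experiment 2 list from 20000 cells also held, and another of 9 bp at 1367 bp. The 9 bp intervals are the shortest in the lists. At Mesp1 a 9 bp peak 789 bp after the start was listed in 3 low-input lists, and the Omni-ATAC list from 50000 cells held peaks of 367 bp (21 to 387 bp after the start) and 402 bp (589 to 990 bp).

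Mixl1 was the gene with a low-input peak across its start: the experiment 1 list from 20000 cells held 1 of 216 bp, at chr1:180696991-180697206, from -172 to 43 bp relative to it. In the same cells Mixl1 had 5 counts. The experiment 2 list from 20000 cells, with 7 Mixl1 counts, held a peak of 44 bp that begins 302 bp after the start, and that from 10000 cells, with 1 count, held 2 of 9 bp. The Omni-ATAC list from 50000 cells covered both positions with a peak of 587 bp. At Gsc that list held a peak of 128 bp from -132 to -5 bp relative to the start, at Foxa2 1 of 131 bp from 523 to 653 bp after it, at Lhx1 1 of 18 bp and at T 1 of 9 bp, from -460 to -452 bp. The Lhx1 peak, from -423 to -406 bp, lay in the body of Lhx1os (0 CPM). The Lhx1os start was nearer, at 280 bp, so the peak cannot be assigned to Lhx1 alone.

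The RefSeq promoter windows (GRCm38.p6, 250 bases before to 50 bases from the start) are shown for 4 genes, Gsc, Mesp1, Eomes and T. At Gsc and Mesp1 a peak reaches into the window. At Eomes the peaks within 1000 bp of the start begin downstream of the window, and at T no list has a peak inside it. Bases within a deposited peak are in capitals, which here were all listed by Omni-ATAC with 50000 cells. Gsc is chr12:104473187-104473486 (minus strand), Mesp1 chr7:79793541-79793840 (minus strand), Eomes chr9:118477939-118478238 (plus strand) and T chr17:8434173-8434472 (plus strand), each 5′ to 3′ along the gene.
Gsc: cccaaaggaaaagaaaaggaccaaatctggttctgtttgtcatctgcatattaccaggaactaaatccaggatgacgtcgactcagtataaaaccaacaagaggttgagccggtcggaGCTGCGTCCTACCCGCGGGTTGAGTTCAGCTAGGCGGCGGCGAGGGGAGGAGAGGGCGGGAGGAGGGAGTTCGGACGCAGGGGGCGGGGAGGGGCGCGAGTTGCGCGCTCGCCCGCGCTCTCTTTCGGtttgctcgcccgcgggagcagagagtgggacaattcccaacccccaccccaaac
Mesp1: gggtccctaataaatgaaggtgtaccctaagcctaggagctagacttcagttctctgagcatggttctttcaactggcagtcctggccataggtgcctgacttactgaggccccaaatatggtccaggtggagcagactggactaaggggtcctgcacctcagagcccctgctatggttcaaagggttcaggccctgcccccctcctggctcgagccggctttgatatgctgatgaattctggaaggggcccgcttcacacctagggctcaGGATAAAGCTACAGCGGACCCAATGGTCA
Eomes: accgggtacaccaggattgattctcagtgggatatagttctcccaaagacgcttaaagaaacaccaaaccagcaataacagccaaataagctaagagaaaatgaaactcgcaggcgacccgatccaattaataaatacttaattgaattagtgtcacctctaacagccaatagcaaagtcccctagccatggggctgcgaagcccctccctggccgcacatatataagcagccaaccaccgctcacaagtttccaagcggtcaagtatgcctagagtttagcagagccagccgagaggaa
T: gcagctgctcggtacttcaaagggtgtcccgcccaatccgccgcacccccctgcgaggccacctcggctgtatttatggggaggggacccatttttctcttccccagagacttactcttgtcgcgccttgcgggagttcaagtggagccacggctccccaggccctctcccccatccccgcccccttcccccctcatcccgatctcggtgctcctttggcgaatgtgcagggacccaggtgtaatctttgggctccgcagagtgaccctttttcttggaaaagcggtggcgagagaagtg
The peak covers 128 of the 300 bases at Gsc and 29 at Mesp1.

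Windows were found for 7 of the 8 genes, with 9 windows in all because Foxa2 has 3 starts in RefSeq. They held a median of 13 CG dinucleotides and 55.3% G+C, beside 7 and 52.7% over 32851 windows. The range was wide: 31 CG in Lhx1, 25 in Gsc and 17 in T, against 10 in Eomes, 6 in Cer1 and 4 in Mesp1. Gsc and T, which had more CG than Eomes and Mesp1, had a peak within 1000 bp of the start in 1 list each, against 6 and 5. Cer1, with 6 CG, had such a peak in 0 lists. Inside the shorter windows where CG was counted, a peak was listed in 1 list for Gsc and for Mesp1, and in 0 for T and for Eomes. The relation of CG to peaks was not tested. Motifs were searched on both strands. The TCF/LEF motif of the Wnt pathway was searched as CTTTGAA and in 3 other forms, with CTTTGAT as one, CTTTGTA as another and CTTTGTT as the last; 16.9% of all windows held at least 1. It occurred 2 times in the Mesp1 window, at bases 178 to 184 and 220 to 226 counted from the 5′ end, in that of T at bases 16 to 22, and in the window of the third Foxa2 start at bases 265 to 271. The T-box motif AGGTGTGA occurred in the Mesp1 window on the reverse strand, at bases 256 to 263, just after the start, and in 1.28% of all windows. The FOXH1 motif was searched as AATCCACA and also with AATACACA as a form (1.82% of windows), the SMAD motif as GTCTAGAC (0.213%) and the Goosecoid-type homeodomain motif as TAATCC (7.06%), and these were found in 0 of the 9 windows. A match describes letters and not binding.

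Peaks farther away were common. Within 50000 bp of the start, 50 of 64 combinations of gene and list had a peak. In experiment 1 they were at 5 of the 8 genes with 10000 cells (67.4% of all genes) and at 7 with 20000 cells (74.8%). Experiment 2 had 5 genes with 5000 cells (67.5%), 8 with 10000 cells (76.8%) and 8 with 20000 cells (84.2%), and Omni-ATAC had 2 with 5000 cells (50.3%), 7 with 10000 cells (79.1%) and 8 with 50000 cells (92.7%). In the 3 lists with all 8 genes the median number of peaks per gene was 2, 4 and 8.5, and 2, 4 and 6 over all genes. Peaks of the 8 lists were joined where they lay within 250 bp, which gave 60 regions around the 8 genes, of which 23 were found in the Omni-ATAC list from 50000 cells alone. In at least 5 lists there were 11, with a median of 1 per gene for the 8 genes as for all genes. Of the 11, 2 lay at the gene's own start, 1 at the start of another gene and 8 elsewhere.

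**Figure D4:**
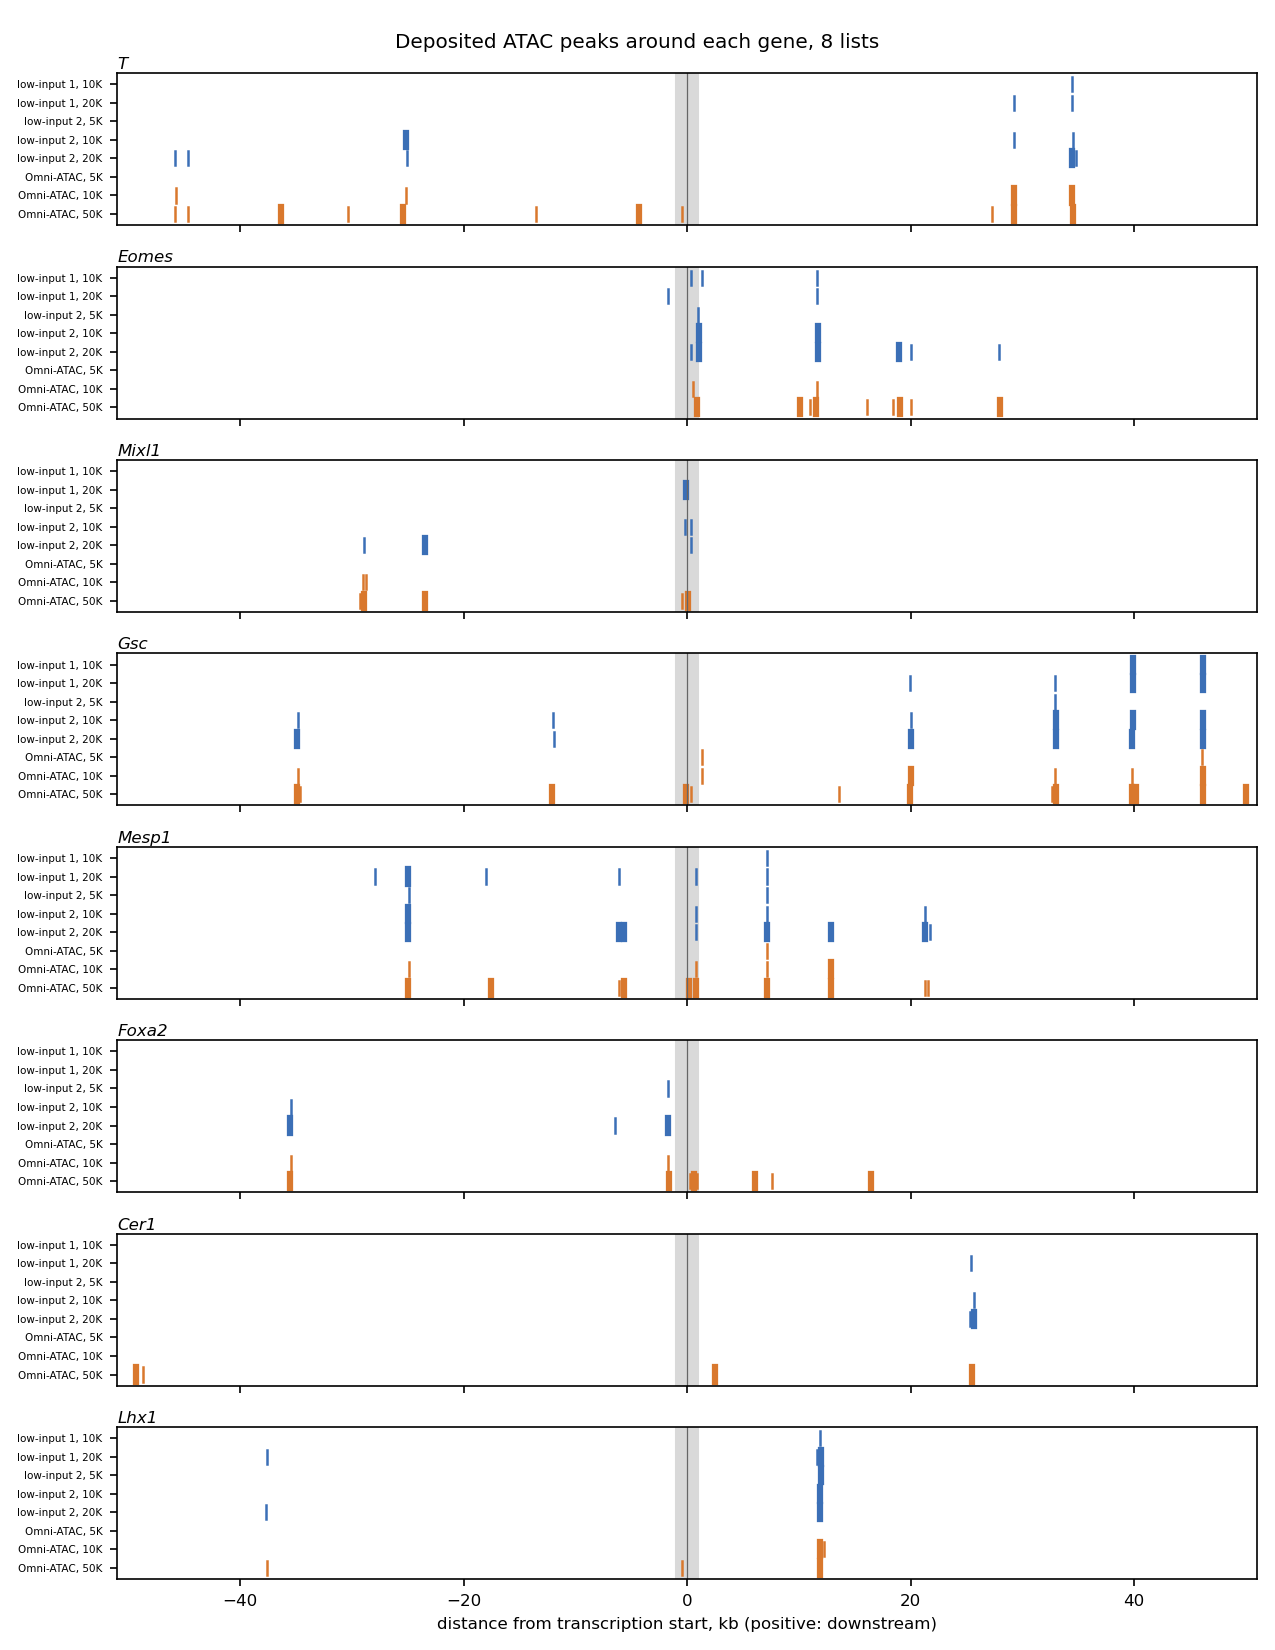
Deposited peaks within 50 kb of the start of each of the 8 genes, 1 row per list (blue, low-input; orange, Omni-ATAC), by distance from the start in the direction of transcription; thick marks are peaks of at least 50 bp, thin marks shorter ones, and the grey band is 1000 bp on either side. Downstream of Gsc 4 columns of marks recur over the lists, while around Cer1 and Lhx1 marks in 4 or more lists are at 1 place each.

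Gsc had 4 such regions, all downstream, although its promoter had a peak in 1 list. They began 19707, 32686, 39641 and 46015 bp after the start and were found in 5, 6, 6 and 7 lists. The farthest, chr12:104426989-104427221, was listed with 10000 and 20000 cells in both experiments and in the 3 Omni-ATAC lists, but not with 5000 cells of experiment 2. The 4 regions lie in no gene body of the count table, and the nearest start was that of Gsc for the closest 2 and that of Serpina3n, over 20 kb away, for the others. T had 1, at chr17:8468843-8469196, 34420 to 34773 bp after its start and outside any gene, in 6 lists. Eomes had 1 beside that at its promoter, chr9:118489615-118489923, which begins 11426 bp after its start and is outside any gene; it was in 6 lists.

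Mesp1 had the 1 region found in all 8 lists, chr7:79786414-79786534, 7056 to 7176 bp after its start and outside any gene. It was narrow in most lists (9 to 121 bp) and is not in the deposited unified list. A second, chr7:79818426-79818647, from -25057 to -24836 bp relative to the Mesp1 start, was in 6 lists, and the nearest start was that of Mesp2, 7699 bp away. Mixl1, Foxa2 and Cer1 had 0 regions in at least 5 lists. The region near Lhx1 in 7 lists, chr11:84513261-84513982, lay across the start of Aatf (28.6 CPM), and the region 25306 bp from Cer1 in 4 lists across that of Zdhhc21 (4.08 CPM), both of which were expressed. Over the 60 regions, 9 lay within 1000 bp of the start of another gene.

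Of the 60 regions, 5 were listed at both 10000 and 20000 cells in experiment 2 and at neither in experiment 1, and 0 the other way round. These 5 were 8.33% of the regions, and the same held for 5.43% of all 95029 regions, with 0.209% the other way round. Relative to the starts they began at -25763 bp for T (within the neighbouring gene T2), -12215 and -35003 bp for Gsc, -35557 bp for Foxa2 and 21225 bp for Mesp1, and none was near Eomes. The experiment 2 lists were longer than those of experiment 1 at equal cell number, so the experiment and the list length cannot be told apart.

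Because low-input ATAC and mRNA came from the same cells, promoter peaks were set beside counts in the 5 matched pairs, 40 combinations of gene and pair. In 20 there was neither a promoter peak nor more than 3 counts. In 9 there were both, in 10 there were more than 3 counts without a peak, and in 1 a peak without more than 3 counts. The last was Mixl1 with 10000 cells of experiment 2, which had 1 count. All 9 were at Eomes, Mesp1 or Mixl1, the only members with a promoter peak in any low-input list. Over all genes, 31.1% to 50.3% had a promoter peak in these lists, and 55.6% to 61.9% had more than 3 counts in these libraries. The same split was not computed over all genes, so whether these counts of combinations are unusual is not known. Gsc had counts above the limit in 4 libraries and a promoter peak in 0 of the 5 low-input lists. Eomes had 13 counts and no promoter peak with 20000 cells of experiment 1, and 5 counts and a peak of 9 bp with 10000 cells. The relation of peak to expression was not tested.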

How the data were processed

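The authors deposited 1 table of raw counts, 1 row per gene and 1 column for each of 5 mRNA libraries. Its coordinates are mm10 per the submitters' processing notes. ATAC peaks were deposited as positions, 1 list per library and a unified list, with no height. The submitters' processing notes name STAR 2.5, featureCounts, Bowtie2 2.1.0 and MACS2 2.1.1; the use of strand, the peak threshold and the treatment of reads matching several places are not given in the sources used here, so genes with close copies or overlaps are uncertain.

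CPM were computed here from each library's total. Experiment 2 was tested against experiment 1 over the 4 libraries from 10000 and 20000 cells with edgeR 4.0.16 (R 4.3.3; TMM, filterByExpr, glmQLFit, glmQLFTest; Benjamini-Hochberg over 12523 genes, threshold 0.05), and the steps were tested on simulated data. SE were derived from the F statistics. The library from 5000 cells stayed outside the fit. Starts are the 5′ ends in the count table. Alternatives were DESeq2 1.42.0, other size factors, no filter, a block, all 5 libraries, left-out libraries, and other peak windows and widths; leaving out the Omni-ATAC list from 50000 cells was chosen after seeing the data. Named genes are the 8 members, the called genes (at most 5 by size) and the most abundant gene of each list, and the 3 genes most like a member of at least 1 CPM. Members and lists were chosen with earlier results of these data known. Promoter sequences, CG content and motifs came from RefSeq windows (GRCm38.p6); genome sequence outside these windows was not used here.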

Additional observations from a re-analysis of the deposited data

How the results depend on the processing

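The count of genes called between experiments was 1567, and with the cell number as a replicate block it was 1765; leaving out 1 library gave 803 (without experiment 2, 10000 cells) to 1817 genes (without experiment 1, 20000 cells), with 1018 without experiment 1, 10000 cells, and 869 without experiment 2, 20000 cells. Libraries of the same cell number did not deviate together over genes (r = -0.0048), and the block changed no call of a member. For Eomes the change stayed positive in all 10 alternatives; with 1 library left out it ran from 1.44 to 2.69. Mesp1 ran from -1.08 to -0.024 with 1 library left out, and turned to 0.043 with all 5 libraries. Of the other named genes, Apela, Snai1, Gdf3 and Smad1 kept direction and call in all 10 alternatives, of which 4 leave 1 experiment with a single library that is assumed to vary like the others, and uncalled Lefty1 ran from -0.083 (without the experiment 2 library from 20000 cells) to 0.29 with 1 library left out. The 19 combinations of gene and list with a promoter peak became 8 with peaks of at least 50 bp, 4 with peaks in the unified list and 12 of 56 without the Omni-ATAC list from 50000 cells. The 50 combinations with a peak within 50000 bp became 31 with peaks of at least 50 bp. Fewer peaks qualify in each of these by construction. At most 43 counts per library limit the precision for every member, and the depth of the ATAC lists is unknown.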
